A study of Mus musculus with 3 samples.

Results

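Of the 6911 Setd1a peaks on chromosomes 1 to 19, 536 were 1000 bp wide or more. These broad peaks were chosen by their deposited width alone, and the 6375 narrower peaks on the same chromosomes served for comparison. They made up 7.76% of the peaks and 18.1% of the bases in peaks, or 689 kb. The peaks came from CUT & RUN, in which an antibody directs a nuclease to cut chromatin beside the bound protein so that the released DNA can be sequenced. Setd1a was profiled in quiescent adult neural stem cells (NSCs), labelled as neural progenitor cells of the dentate gyrus, on day 5 without EGF in medium with BMP4 and FGF2 (each at 20 ng/ml). There were 2 Setd1a libraries and 1 IgG library. All 3 carry the genotype label WT, and all were derived from mice aged 7 to 8 weeks with the alleles Hopx-CreERT2, floxed Setd1a and H2B-GFP, in which the inducible Cre is driven from the Hopx gene of quiescent stem cells. The deposited list holds 6969 intervals found in both Setd1a replicates, with no height or score and no values per replicate. The spread between replicates could therefore not be measured and the depth of the libraries is unknown. The intervals given below are 95% confidence intervals that treat peaks as independent and cover counting error only.

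Setd1a is a catalytic subunit of a COMPASS-type complex that methylates histone H3 at lysine 4, a modification of active promoters. In mammals the complex is brought to CpG islands, stretches of unmethylated CpG-rich DNA that surround the transcription start site (TSS) of most housekeeping and many developmental genes, in part through the CpG-binding subunit Cxxc1. GC boxes, the sites of Sp and Klf transcription factors, are common in such promoters.

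The sequences at several broad peaks show the range of DNA under them. Printed first are the 200 bases before the TSS at the 5 widest peaks that overlapped a coding TSS and were not mostly repeat (Ppp2r3d, Mnt, Cactin, Disp3 and Tef), and at Dazap2. The peak at Bhlhe40 overlapped no TSS, and its 200 central bases are given, as are those of the widest peak far from any TSS, which was chosen after its values were seen. All were read from GRCm38 (mm10) and are written 5′ to 3′, and capitals mark each GC box, GGGCGG on either strand.
Mnt (chr11:74830720-74830919, plus strand): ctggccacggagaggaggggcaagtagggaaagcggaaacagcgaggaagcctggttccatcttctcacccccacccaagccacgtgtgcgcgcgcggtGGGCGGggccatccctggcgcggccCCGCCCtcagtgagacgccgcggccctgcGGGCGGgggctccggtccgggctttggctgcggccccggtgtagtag
Tef (chr15:81810846-81811045, plus strand): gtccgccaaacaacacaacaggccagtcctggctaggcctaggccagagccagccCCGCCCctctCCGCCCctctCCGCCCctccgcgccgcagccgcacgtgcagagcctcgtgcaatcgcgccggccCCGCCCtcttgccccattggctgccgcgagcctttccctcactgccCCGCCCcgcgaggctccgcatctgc
Dazap2 (chr15:100615149-100615348, plus strand): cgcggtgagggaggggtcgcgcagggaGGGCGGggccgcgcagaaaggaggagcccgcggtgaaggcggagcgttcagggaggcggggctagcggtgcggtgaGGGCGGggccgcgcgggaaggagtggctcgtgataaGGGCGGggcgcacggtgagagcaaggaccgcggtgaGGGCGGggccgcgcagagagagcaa
Ppp2r3d (chr9:124424155-124424354, minus strand): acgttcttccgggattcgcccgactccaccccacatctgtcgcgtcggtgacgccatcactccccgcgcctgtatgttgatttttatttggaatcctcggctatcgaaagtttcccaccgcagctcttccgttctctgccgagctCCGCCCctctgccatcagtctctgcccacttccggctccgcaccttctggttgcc
Cactin (chr10:81320903-81321102, plus strand): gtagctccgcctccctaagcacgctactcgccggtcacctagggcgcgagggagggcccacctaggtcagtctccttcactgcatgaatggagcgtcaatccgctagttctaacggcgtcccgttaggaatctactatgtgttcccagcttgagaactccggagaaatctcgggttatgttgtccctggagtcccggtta
Disp3 (chr4:148287966-148288165, minus strand): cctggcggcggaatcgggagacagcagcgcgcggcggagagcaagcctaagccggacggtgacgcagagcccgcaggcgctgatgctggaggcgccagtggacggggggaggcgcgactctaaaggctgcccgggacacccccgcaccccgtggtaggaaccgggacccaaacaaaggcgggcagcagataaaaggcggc
Bhlhe40, peak centre (chr6:108659542-108659741, plus strand): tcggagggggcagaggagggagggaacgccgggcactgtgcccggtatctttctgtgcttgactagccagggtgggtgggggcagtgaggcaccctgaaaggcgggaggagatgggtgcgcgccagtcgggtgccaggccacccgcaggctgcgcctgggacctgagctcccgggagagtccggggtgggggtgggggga
Intergenic peak nearest Irf2bp2, peak centre (chr8:126666882-126667081, plus strand): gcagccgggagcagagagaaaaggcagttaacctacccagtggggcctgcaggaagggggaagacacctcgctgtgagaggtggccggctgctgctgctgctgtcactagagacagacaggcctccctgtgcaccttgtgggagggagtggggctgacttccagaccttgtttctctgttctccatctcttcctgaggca

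The stretches before Tef, Dazap2 and Mnt held 5, 4 and 3 GC boxes. The stretch before Ppp2r3d held 1, whereas those before Cactin and Disp3 held none. All 6 had 14 to 27 CpG dinucleotides in 200 bases. The centre of the Bhlhe40 peak had 12 CpGs and no GC box. The centre of the intergenic peak had 3 CpGs and no GC box, although its GC content was 60.0%.

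Broad peaks formed the upper end of one continuous distribution of widths. Their median was 1197 bp, with quartiles of 1076 and 1396 bp, against a median of 441 bp among narrower peaks. Of the 536, 307 were under 1250 bp, 89 were 1500 bp or more and 13 were 2000 bp or more. The members just inside the limit were a peak of 1000 bp at Edem3, a lectin of glycoprotein degradation in the endoplasmic reticulum, and one of 1001 bp that lay 15.2 kb from Fgfr3, a receptor of FGF signalling. Just outside it were peaks 1 bp shorter than it at Ddx39b, an RNA helicase of mRNA export, and near Klhl26.

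**Figure D1:**
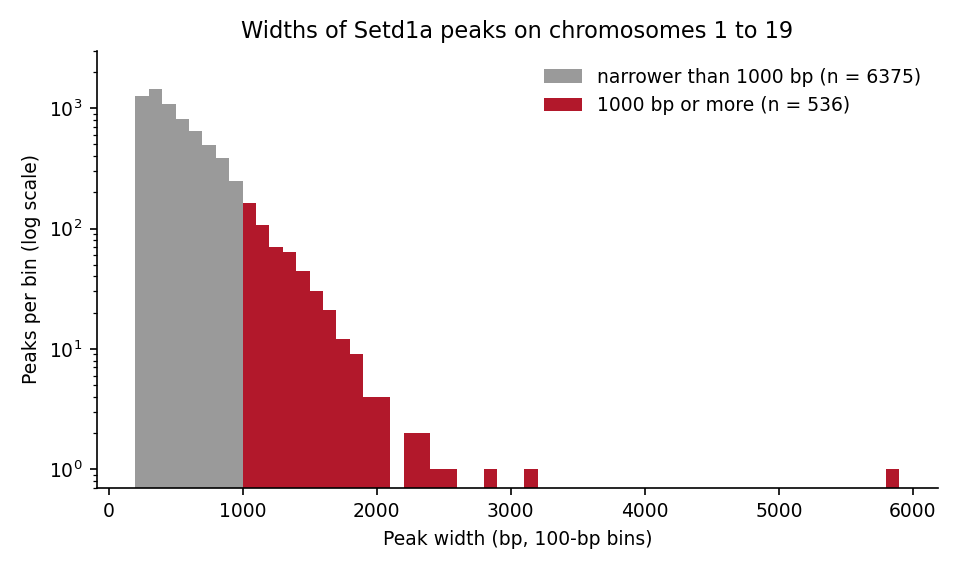
Number of Setd1a peaks on chromosomes 1 to 19 per 100-bp bin of width (x axis, bp), on a logarithmic y axis, with the 536 peaks of 1000 bp or more in red and the 6375 narrower peaks in grey. The counts fall steadily across 1000 bp with no gap there, and a single peak of 5805 bp stands apart.

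The widest peaks included several intervals in repeated DNA. The widest of all, 5805 bp on chromosome 17 (39842997 to 39848801), lay over Gm26917, AY036118 and Gm42418, which are noncoding annotations, and over the RefSeq ribosomal RNA relative Rn18s-rs5, and it had a CpG-rich run of 6060 bp. A peak of 2530 bp beside Gm21738 on chromosome 14 was soft-masked as repeat over 84.9% of its length, and one of 2320 bp at Gm11168 on chromosome 9 over 97.9%. In all, 5 of the 536 broad peaks were at least 50% soft-masked (0.933%), against 131 of 6375 narrower peaks (2.05%). Near-identical copies can share reads, so the width and place of these peaks are uncertain.

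Outside these repeats, 12 of the 20 widest peaks lay over a coding TSS. The peak at Mnt, a bHLH repressor that pairs with Max, was 2836 bp wide (chr11:74829644-74832479) and reached from 1276 bp upstream to 1559 bp downstream of the TSS. Those at Ppp2r3d, a regulatory subunit of protein phosphatase 2A, and at Cactin were 3140 and 2257 bp wide. The Disp3 peak was 2250 bp wide and that at Tef, a bZIP factor of the circadian output, 2078 bp. Ccnt1, the cyclin subunit of the elongation factor P-TEFb, had a peak of 2025 bp. Peaks of 2018, 2000 and 1968 bp lay at Caprin1, which encodes an RNA-binding protein, at Epc2, a subunit of an acetyltransferase complex, and at Eif4g2, a translation initiation factor. Sgms1, a sphingomyelin synthase, had a peak of 1926 bp and Pnrc1, a nuclear receptor coactivator, one of 1879 bp. A peak of 1922 bp covered the TSSs of both R3hdm1 and Zranb3. The others of the 20 widest lay at noncoding transcripts or farther from promoters. One of 2333 bp overlapped Mir22hg, the host gene of a microRNA, and Tlcd2, and one of 1894 bp on chromosome 18 lay within 3000 bp of the start of the lincRNA Gm26682. A peak of 2425 bp lay 71.8 kb from Irf2bp2, a peak of 1937 bp overlapped the gene of the clock repressor Cry2 and D930015M05Rik, with its midpoint in an exon, 8.46 kb from its TSS, and a peak of 1873 bp lay 11.1 kb from Camk2g.

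At the genes that the study describes by name for this assay, the broad peaks were those of Dazap2 (1826 bp) and Bhlhe40 (1631 bp). The Dazap2 peak held 18 GC boxes, or 9.86 per kb, against a median of 3.87 per kb over the 410 broad peaks at a coding TSS. The Bhlhe40 peak ended 172 bp before the first TSS of that gene. The promoter peaks of Bhlhe41 (786 bp), Atr (418 bp) and Fbxl5 (281 bp) were narrower than 1000 bp. No promoter peak was assigned to Setd1a itself, and Pgk1 lies on chromosome X and was not among the chromosomes compared.

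Broad peaks were found at promoters more often than narrower peaks. Since a wide interval reaches a TSS more easily, position was taken from the midpoint. The midpoint lay within 3000 bp of a TSS for 469 of 536 broad peaks (87.5%, 84.4% to 90.04%) and for 4366 of 6375 narrower peaks (68.5%, 67.3% to 69.6%). The difference was 19.01 percentage points (15.7 to 21.8, Newcombe interval). With the interval widened for the 12 differences compared, of 4 position or composition shares and 8 motifs, it ran from 14.1 to 22.9. Against narrower peaks of at least 500 bp only, the difference was 10.5 percentage points (7.00 to 13.5). By width class the promoter share was 58.2% under 300 bp, 82.3% from 750 bp to the limit, 86.0% at 1000 to 1249 bp, 90.7% at 1250 to 1499 bp and 87.6% from 1500 bp. The rise thus lay mostly below 1000 bp, and the intervals of the 3 broad classes overlapped.

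**Figure D2:**
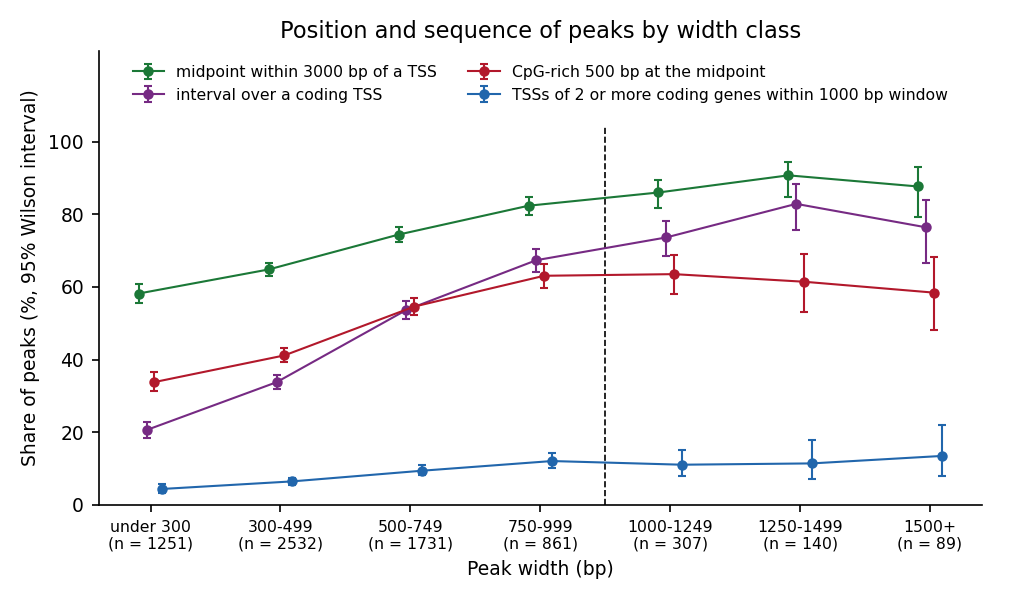
Share of peaks (y axis, %, with 95% Wilson intervals) in 7 classes of peak width (x axis, bp, with the number of peaks) whose midpoint lay within 3000 bp of a TSS (green), whose interval overlapped a coding TSS (purple), whose central 500 bp were CpG-rich (red) or whose central 1000 bp held TSSs of 2 or more coding genes (blue). The dashed line marks 1000 bp. All 4 shares rise across the narrower classes, and their intervals overlap among the 3 broad classes.

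Most broad peaks spanned a start site in both directions. A coding TSS lay inside 410 of the 536 (76.5%), and a TSS of any kind inside 433 (80.8%). Among narrower peaks these shares were 41.1% and 46.2%. Since overlap grows with the width, by which the classes were chosen, the gap is not read as a result. Where a peak held several coding TSSs, the one nearest its midpoint was taken, here and elsewhere. That choice evens the reach to either side and draws midpoints to the TSS, and its part was not tested. Among the 342 that overlapped the TSSs of exactly 1 coding gene, the median reach was 610 bp upstream and 626 bp downstream, and 121 (35.4%) extended at least 500 bp to each side. Their midpoints lay downstream of the TSS in 52.0% of cases, against 51.7% among 2335 such narrower peaks, a difference of 0.355 percentage points (-5.31 to 5.98). A strongly one-sided position was seen in 19 peaks with at least 80% of their width downstream, and in 23 with that share upstream (5.56% and 6.73%). Among the narrower peaks these shares were 15.8% and 10.6%, and since a wider interval over a TSS reaches farther to each side, the width itself bears on them. At named genes the lean varied. The peak of Atf4, a stress response factor, reached 205 bp upstream and 1210 bp downstream, whereas that of Jag1, a Notch ligand, reached 957 bp upstream and 80 bp downstream.

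**Figure D3:**
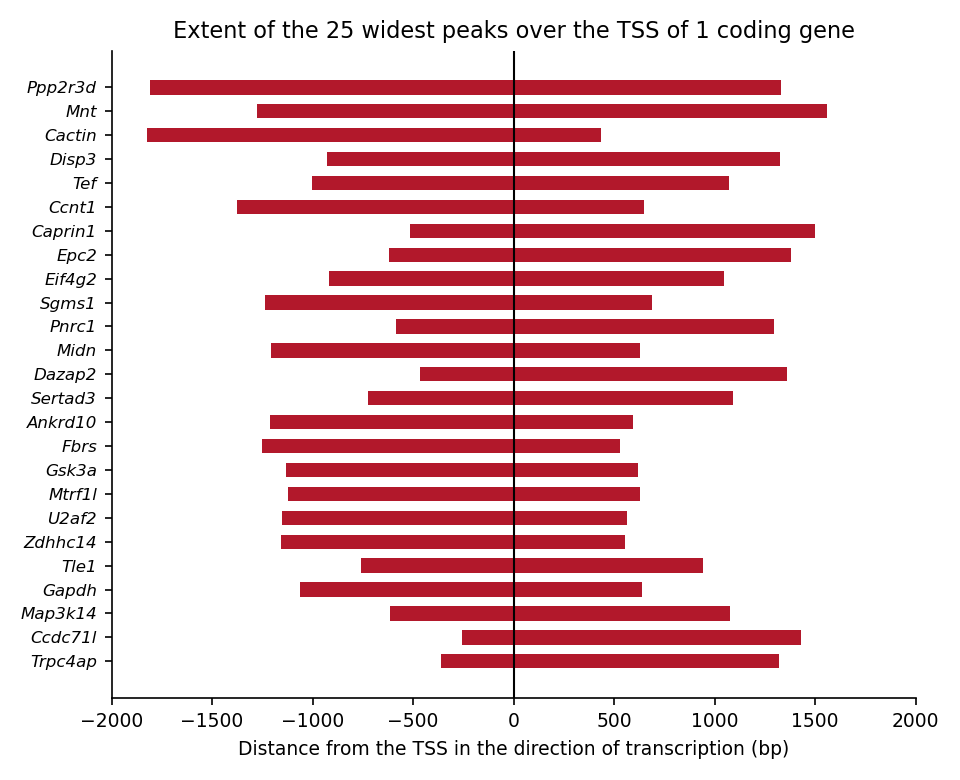
Extent of the 25 widest peaks that overlapped the TSS of exactly 1 coding gene and were under 50% soft-masked, drawn to scale around the coding TSS nearest the midpoint (0 on the x axis, in bp, with transcription to the right). The peaks of Mnt, Tef and Eif4g2 reach more than 900 bp to each side, and those of Cactin and Dazap2 lean to opposite sides.

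Some broad peaks joined the starts of neighbouring genes. TSSs of at least 2 coding genes lay in the central 1000 bp of 62 broad peaks (11.6%, 9.13% to 14.6%) and of 486 narrower peaks (7.62%, 7.00% to 8.30%), a difference of 3.94 percentage points (1.41 to 6.99; 0.406 to 8.58 over the 12 differences). This difference fell to 1.27 (-1.47 to 4.45) against narrower peaks of at least 500 bp, and to 1.56 (-1.94 to 5.66) among peaks centred within 500 bp of a coding TSS. Counted over the whole interval, which grows with the width, TSSs of at least 2 coding genes lay in 68 broad (12.7%) and 287 narrower peaks (4.50%), a difference of 8.19 (5.57 to 11.3). A divergent pair, transcribed away from each other, lay inside 61 of the 536 broad peaks (11.4%) and 231 of the 6375 narrower peaks (3.62%). Besides R3hdm1 and Zranb3, peaks over the TSSs of 2 coding genes included those at Setd3 and the cyclin gene Ccnk (1835 bp) and at Iscu and Sart3 (1742 bp). At 3 peaks, TSSs of 3 coding genes or more lay inside the interval. They were at Atf5, Il4i1 and Nup62 (1076 bp), at Myl12a, Myl12b and Myom1 (1033 bp) and at Hdlbp and Sept2 (1489 bp), where 1 symbol is shared by more than 1 gene record. Broad peaks did not have a near neighbour more often than narrower ones at the precision of these counts, with another peak within 10 kb for 17.4% (14.4% to 20.8%) and 17.3% (16.4% to 18.3%), respectively, and a difference of 0.0174 percentage points (-3.10 to 3.57).

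The central 500 bp of broad peaks were CpG-rich (GC content of at least 55% and a CpG observed to expected ratio of at least 0.65) in 333 of 536 (62.1%, 58.0% to 66.1%), against 2953 of 6375 narrower peaks (46.3%, 45.1% to 47.5%). The difference of 15.8 percentage points (11.5 to 20.0) moved with width and position. Against narrower peaks of at least 500 bp only, it was 4.72 (0.132 to 9.16). Among peaks centred within 500 bp of a coding TSS it was -2.49 (-7.14 to 1.70), with 76.3% of broad and 78.8% of narrower peaks CpG-rich. Over the TSS of 1 coding gene, the centre was CpG-rich in 74.6% of broad and 82.3% of narrower peaks, a difference of -7.71 (-12.8 to -3.10). There the midpoint lay a median of 174 bp from the TSS in broad peaks and 85.0 bp in narrower ones. When the 500 bp were centred on the TSS itself, the shares were 85.1% (291 of 342) and 85.4% (1993 of 2335), and the difference was -0.266 (-4.65 to 3.43). The CpG-rich share at the TSS itself thus did not differ beyond its interval. The longest CpG-rich run touching the peak had a median of 1300 bp at the 410 broad peaks over a coding TSS and 1060 bp at the 2622 such narrower peaks. A wider interval can touch more runs, and how far this entered the difference was not tested. Across the 342 broad peaks over 1 coding gene, width and the length of the run had a Spearman rho of 0.215, and width and gene length one of -0.0239, both given as descriptions.

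**Figure D4:**
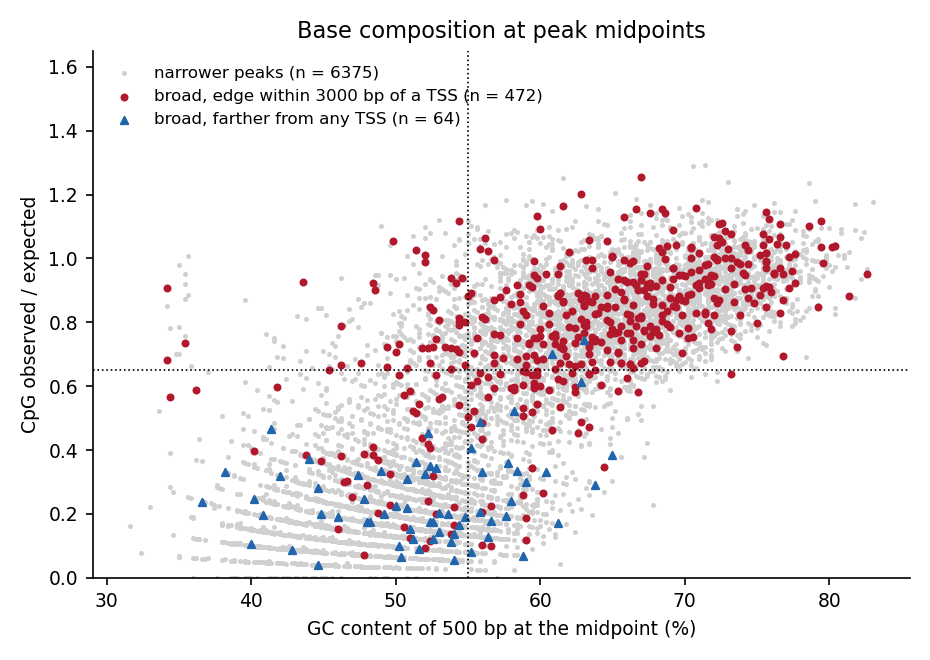
GC content (x axis, %) and CpG observed to expected ratio (y axis) of the 500 bp at the midpoint of each peak, with narrower peaks in grey, the 472 broad peaks whose edge lay within 3000 bp of a TSS in red and the 64 others in blue. Dotted lines mark the limits of 55% and 0.65. Red points fill the upper right, and 2 blue points lie past both limits.

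GC boxes lay in the central 500 bp of 392 broad peaks (73.1%, 69.2% to 76.7%) and 3376 narrower peaks (53.0%, 51.7% to 54.2%), a difference of 20.2 percentage points (16.1 to 24.0; 14.1 to 25.6 over the 12 differences). This gap narrowed to 3.48 (-0.649 to 7.00) among peaks centred within 500 bp of a coding TSS, and it was 3.85 (-0.241 to 7.20) in 500 bp around the TSS of the 342 and 2335 peaks over 1 coding gene. For scale, 53.5% of the 20807 coding genes on these chromosomes had a GC box in the 500 bp around their 5′ end, as did 81.3% of the 450 coding genes with a broad promoter peak and 77.1% of the 3785 whose promoter peak was narrower (4.24; 0.163 to 7.84). For the other 7 motifs, searched as exact letters on both strands, the 95% interval of the difference in the central 500 bp of all peaks included 0. They were the ETS site CCGGAAGT, the NRF1 half-site GCATGCGC, the YY1 site ATGGCGGC, the cAMP response element TGACGTCA, the E-box CACGTG, the NF-Y box CCAAT and the ZBTB33 core CTCGCGAG. In the central 1000 bp the interval lay above 0 for the ETS site (3.08; 0.588 to 6.10) and the ZBTB33 core (1.83; 0.316 to 3.96). Neither comparison was limited to peaks near a TSS, and neither interval was widened for the number of motifs. The sign for the ETS site turned around gene 5′ ends, at -3.33 (-5.59 to -0.416). CCAAT differed by 5.92 (0.699 to 11.1) among peaks centred within 500 bp of a coding TSS and by 5.50 (0.617 to 10.3) around gene 5′ ends, but by -0.206 (-5.84 to 5.45) around the TSS under peaks over 1 coding gene. The E-box, a sequence that Mnt with Max and Bhlhe40 can bind, was at the centre of 10.1% of broad and 11.97% of narrower peaks (-1.89; -4.31 to 1.05). Among peaks centred within 500 bp of a coding TSS the shares were 9.95% and 14.9% (-4.98; -7.85 to -1.43), but in 500 bp around the TSS itself they were 14.6% and 16.1% (-1.48; -5.17 to 2.90). The NRF1 half-site was less common around the TSS under broad peaks, in 4.39% against 9.38% (-4.99; -7.11 to -2.05). Around the 5′ ends of all coding genes with a broad or a narrower promoter peak its shares were 6.44% and 7.53%, with an interval that includes 0 (-1.09; -3.20 to 1.69). The comparisons around TSSs and gene 5′ ends were added after the data were seen, and their intervals were not widened for the number of motifs. A match of letters is a description and does not show that a factor was bound.

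Away from promoters, 64 broad peaks (11.9%) had their nearer edge more than 3000 bp from any TSS, against 1983 narrower peaks (31.1%). Of these, 29 lay in introns, 3 in exons and 32 between genes, and 43 lay within 50 kb of a coding TSS. The 64 distal broad peaks were poor in CpG, with a median of 13.3 CpGs per kb against 76.0 per kb at the 410 broad peaks over a coding TSS, and 2 of 64 were CpG-rich at the centre (3.12%), close to 43 of 1983 distal narrower peaks (2.17%). GC boxes were nevertheless more frequent in them, at the centre of 17 of 64 (26.6%) and of 250 of 1983 distal narrower peaks (12.6%), a difference of 14.0 percentage points (4.56 to 26.0; 1.28 to 31.9 over 12 differences). The median GC content of the same 500 bp was 52.5% and 49.2%, and its part in this difference was not tested. Another peak within 10 kb was found for 21.9% and 12.5% (9.37; 0.858 to 21.01, and -1.97 to 27.0 over 12 differences). The letters of AP-1 (TGAGTCA), SOX (ACAAAG), FOX (TGTTTAC) and the E-box CAGCTG were added after the data were seen. For each, the interval of the distal difference included 0. Over all peaks, the SOX letters were at the centre of 24.3% of broad and 29.3% of narrower peaks (-5.02; -8.64 to -1.06). Widened over 12 differences, that interval included 0 (-10.2 to 0.873). CAGCTG was at the centre of 21.6% and 27.9% (-6.25; -9.71 to -2.41, and -11.2 to -0.522 over 12 differences). The 12 differences do not include these added motifs. Among distal peaks the sign was the other way for both, at 4.26 (-7.74 to 16.4) for SOX and 4.92 (-6.29 to 17.3) for CAGCTG. Distal peaks were 11.9% of broad and 31.1% of narrower peaks, and the part of this in the differences over all peaks was not tested.

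A few of the genes nearest to distal broad peaks are named here, after their positions were seen and without a count or test of their kind. A peak of 1016 bp lay inside Notch1, the Notch receptor, 15.5 kb from its TSS. A peak of 1206 bp lay in an intron of Slc1a3, a glutamate transporter, 49.96 kb from its TSS. Intergenic peaks of 1490 and 1614 bp lay 7.17 kb from Hepacam, an adhesion molecule, and 7.54 kb from Gpr37l1, a receptor. Others of the 64 were nearest to genes such as Cacna1c, Kcnq3, Arg1 and Cps1, so the named genes stand for no common kind. For Sox2 the nearest broad peak (1338 bp) was 490.4 kb away, which gives no assignment beyond nearness. The nearest coding gene also had a promoter peak for 22 of the 64. One such gene was Klf13, with a promoter peak of 1537 bp and a second broad peak of 1261 bp at 18.1 kb. Another was Kdm6b, a demethylase of histone H3 lysine 27, with a promoter peak of 542 bp and a broad peak of 1815 bp that ended 3.31 kb from its TSS. This share, 34.4%, did not differ beyond its interval from the 28.9% of distal narrower peaks (5.48; -5.17 to 17.9).

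Genes were given a promoter peak when it was the nearest TSS of any transcript, or the nearest coding TSS, within 3000 bp of the edge. By this rule 4805 genes had a promoter peak, and for 494 of them (10.3%) the widest was broad. Of the 494, 450 were protein-coding and 16 were lincRNAs. Cic, Marcks, Sin3a and Tmed10 each had 2 broad promoter peaks, as did the repeat-associated Gm11168. The shares of gene lists below are read beside that 10.3%, and the median of the widest promoter peak beside 531 bp over all these genes. Because the lists were not tested, no list is called different.

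Among splicing factors and hnRNPs, which shape messenger RNA, 14 of 58 promoter-peak genes had a broad peak (24.1%, median width 714 bp). U2af2, which binds the polypyrimidine tract, had 1720 bp. The serine- and arginine-rich Srrm2 had 1592 bp, Pnisr 1564 bp, Acin1 1456 bp and Hnrnph3 1406 bp. In the ubiquitin system 14 of 60 were broad (23.3%, median 578 bp), with, for example, 1462 bp at Trim28 and 1449 bp at Fbxl19. Translation factors had 4 of 32 (12.5%). Besides Eif4g2 these were Eif2b4 (1524 bp), Eef1d (1216 bp) and Eef2k (1099 bp). Eef2k is a kinase gene that the list includes, and its peak overlapped no coding TSS. Ribosomal protein genes had 3 of 37 (8.11%), with 1499 bp at Rpl19, 1128 bp at Rpl22l1 and 1091 bp at Rps18.

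Immediate early genes are induced within minutes of a stimulus. The list that joins them with stress response factors had 9 of 39 (23.1%, median 673 bp). The widest of these lay at Klf13, at Egr1 (1472 bp), at Atf4 (1416 bp), at Fosl2 (1228 bp) and at Junb (1178 bp). Of cell cycle and quiescence regulators 5 of 30 had a broad peak (16.7%). Of these, 3 belong to P-TEFb, which releases paused RNA polymerase: Ccnt1, Cdk9 (1442 bp) and Ccnt2 (1200 bp). The others were the kinase gene Dyrk1a (1536 bp) and the CDK inhibitor gene Cdkn2d (1085 bp). Histone modifiers and remodelers had 9 of 58 (15.5%). The widest were at Kmt2e, a SET-domain protein (1722 bp), the SWI/SNF subunit gene Arid1a (1318 bp), the bromodomain gene Brd2 (1289 bp), Asxl1 (1254 bp) and the acetyltransferase gene Kat7 (1241 bp). Rbbp5, a core subunit shared by Setd1a and the other COMPASS-type complexes, had a peak of 1061 bp and is named after its value was seen.

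The list of BMP, Notch, Wnt and FGF signalling, which also takes in genes of other pathways such as Smad2 and Mtor, had 5 of 36 (13.9%). They were Gsk3a (1754 bp), the TGF-beta pathway effector Smad2 (1403 bp), Gsk3b (1336 bp), Jag1 (1038 bp) and Mtor (1036 bp). The bHLH and Id genes had 3 of 26 (11.5%), and these were Mnt, Bhlhe40 and Id1, a BMP target (1239 bp). Transcription factors of NSCs had 1 of 13 (7.69%), Foxo3 (1127 bp), which maintains quiescent stem cells. Zfp zinc finger genes had 4 of 103 (3.88%), from 1038 bp at Zfp78 to 1688 bp at Zfp91, and homeobox and Pax genes 0 of 10, which at a Wilson interval allows up to 27.8%. Among noncoding host genes, 3 of 10 were broad (30.0%), namely Malat1 (1739 bp), Mir99ahg (1288 bp) and Snhg5 (1169 bp).

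**Figure D5:**
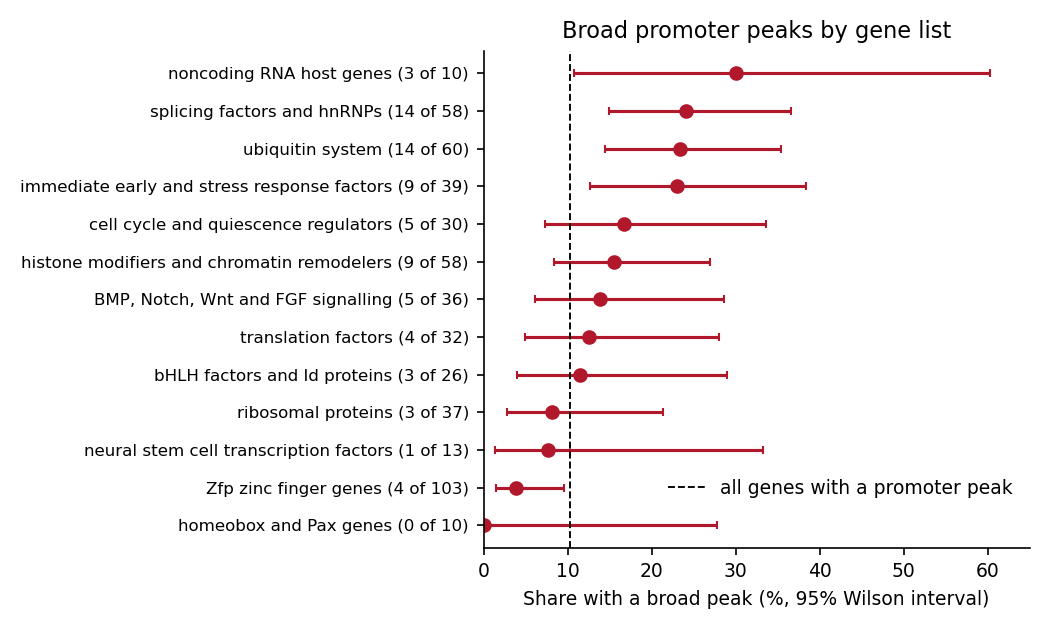
Share of genes with a promoter peak whose widest promoter peak was 1000 bp or more (x axis, %, with 95% Wilson intervals) for 13 gene lists, each with its count, and for all 4805 genes with a promoter peak (dashed line, 10.3%). NSC transcription factors, ribosomal proteins, Zfp genes and homeobox and Pax genes lie to the left of the line and all other lists to the right.

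Promoter peaks at marker genes of cell types describe binding and not expression. Of 11 NSC markers, 6 had a promoter peak, and the broad ones were at Gfap (1663 bp) and Vim (1037 bp), intermediate filament genes of radial glia-like stem cells. The Gfap peak overlapped no coding TSS. It held 13.2 CpGs per kb, against a median of 76.0 at broad peaks over a coding TSS. Of 5 oligodendrocyte lineage markers 2 had a promoter peak, and that at Pdgfra, a receptor of oligodendrocyte progenitors, was broad (1028 bp). None of the 5 neuron, 4 microglia and 3 endothelial markers on these chromosomes had one. For scale, 16572 of the 20807 coding genes on these chromosomes had no promoter peak either. The absence in lists this short is therefore not read as a trait of these cell types.

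The share of peaks that were broad was similar on most chromosomes. It was highest on chromosome 19 (11.4%, 29 of 254) and chromosome 10 (11.2%, 59 of 529) and lowest on chromosome 13 (2.46%, 7 of 284). With intervals widened for the 19 chromosomes, the difference from the other chromosomes included 0 for all but chromosome 10 (3.68 percentage points, 0.0430 to 8.56) and chromosome 13 (-5.52, -7.46 to -0.859).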

How the data were processed

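CUT & RUN with an antibody to Setd1a (2 libraries) or IgG (1 library) was made from cultured mouse NSCs. Per the labels and the study's methods, the authors trimmed reads (Trimmomatic 0.32), aligned them to mm10 (Bowtie2 2.1.0), filtered them (SAMtools 0.1.18), called peaks per replicate (MACS2 2.2.8, default parameters) and deposited the peaks of both replicates as 1 list of start and end in bp. The methods name an intersection of the replicates' peaks. Whether the deposited edges are those of the overlap or of 1 replicate, which sets the widths used here, and whether IgG served in calling are not given in the sources used here. Width is end minus start plus 1. GENCODE M21 TSSs and GRCm38.p6 sequence were used with Python 3.11.15, pandas 2.3.3 and scipy 1.17.1. Shares have 95% Wilson intervals and differences 95% Newcombe intervals, with a second level over 12 differences; the code was tested on simulated data. No test over samples was possible. Named genes were those at the 20 widest peaks, at the limit, the 5 widest of each list and those named by the study. Some genes that this rule takes are not reported here. The members, lists and several comparisons were chosen with earlier results of these data known.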

Additional observations from a re-analysis of the deposited data

How the results depend on the processing

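The number of broad peaks follows the limit, with 1172 at a minimum of 800 bp and 89 at 1500 bp. Genes with a broad promoter peak numbered 468 by the nearest TSS and 731 when every gene with a TSS within 3000 bp was counted. The promoter difference kept its direction and an interval above 0 under the 8 alternatives tried, from 10.5 to 21 percentage points. The CpG-rich difference was -2.49 percentage points among peaks centred within 500 bp of a coding TSS and 0.957 among distal peaks, both with intervals that include 0, and 4.72 against narrower peaks of at least 500 bp. The multi-gene difference had an interval that includes 0 at a minimum of 1500 bp (5.63), against narrower peaks of at least 500 bp (1.27) and among peaks centred within 500 bp of a coding TSS (1.56), and it was 8.19 over the peak interval itself. The comparisons by distance to a coding TSS were chosen after seeing the data. No paired analysis was possible because the deposited list combines both Setd1a replicates, so no result without 1 replicate could be given either.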
